A study of Mus musculus with 4 samples.

Results

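Macrophages, dendritic cells and neutrophils are the phagocytes of the intestinal wall, and 10 genes that mark them were followed in ileal RNA: S100a8, S100a9, Csf1r, Adgre1, Mrc1, Cd209a, Itgax, Cd68, Lyz2 and Retnla. They were taken by symbol through the RefSeq accession of each array probe, and 9 of the 10 had a probe, out of 20886 symbols named on the array; Cd68 matched none and was not analysed here. The samples came from male C57BL/6J mice aged 10 weeks, 2 labelled control and 2 given metformin by mouth at 1000 mg/kg. The labels name no vehicle, treatment length or pooling, nor do they state that same-group samples are from different animals. The p-values therefore set each difference against variation among these arrays only, partly pooled over features, and that variation may be technical. The labels name no transgene or altered allele.

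Resident macrophages of the gut arise mostly from blood monocytes and depend on signals through the receptor that Csf1r encodes. Dendritic cells carry antigen to lymph nodes, and neutrophils are short-lived cells that enter inflamed tissue with granules full of antimicrobial proteins. Retnla is a classical gene of alternatively activated macrophages, which interleukin-4 and interleukin-13 induce. In whole tissue RNA, fewer cells of a type and less RNA per cell cannot be told apart.

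All values below are log2 processed signal minus the array's 75th percentile, so 0 is the 75th percentile and 1 unit is 2-fold, and differences are metformin minus control. Between 65.2% and 69.1% of probes were well above background on each array, and the number of arrays limits the precision. The arrays shared 1 slide and 1 scan; controls held positions 1 and 2 and metformin samples positions 3 and 4, so slide position and treatment cannot be told apart. The ileal bile acid binding protein gene Fabp6 stood at 8.94 (control 1), 8.29 (control 2), 4.16 (metformin 1) and 8.70 (metformin 2). Metformin 1 thus stood apart in a gene that marks the labelled tissue, and the list of 8 proximal small intestine markers had a median of 2.45 above the control mean there, against -0.47 in metformin 2.

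Across 21649 genes and transcripts, limma's fit with Benjamini-Hochberg adjustment called 0 (0%) at 0.05, the lowest adjusted p being 0.9996, and 0 of the 8 tested genes of this group. At an unadjusted p under 0.05 the fit had 76 higher (0.351%) and 271 lower (1.25%). Features at least 2-fold higher were 269 (1.24%) and lower 772 (3.57%); with no overlap of the groups required as well they were 137 (0.633%) and 499 (2.3%). The latter pair became 211 and 412 when array medians replaced the 75th percentile, and 10 and 451 in the unscaled deposited table. The median difference of all features was 0.06, and 0.19 and -0.17 under those 2 settings. An exact permutation of 2 against 2 samples cannot go below a two-sided p of 0.333, so no such test was used.

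Of the 8 tested genes, 6 had a difference above 0, as did 57.9% of all features. In 3 of the 8, S100a9, Adgre1 and Mrc1, both metformin samples lay above both controls, against 12.5% of all features; in 1, Retnla, both lay below, against 8.46%. S100a9 and Cd209a were at least 2-fold higher and Retnla at least 2-fold lower, against 1.24% and 3.57% of all features. With normexp background correction these genes differed by 0.93, 0.75 and -0.63, all under 2-fold. S100a9 entered the test only through its metformin arrays, since control 1 was not well above background, so these counts are a description. The median difference over the 8 was 0.50, and 0.48 over the 7 well above background on all 4 arrays, beside 0.06 for all features. It was 0.14 without metformin 1 and 0.87 without metformin 2. Among the 10 probes well above background on all 4 arrays, of 13 in all, metformin 1 held the highest value in 6, control 1 in 2, and control 2 and metformin 2 in 1 each.

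**Figure D1:**
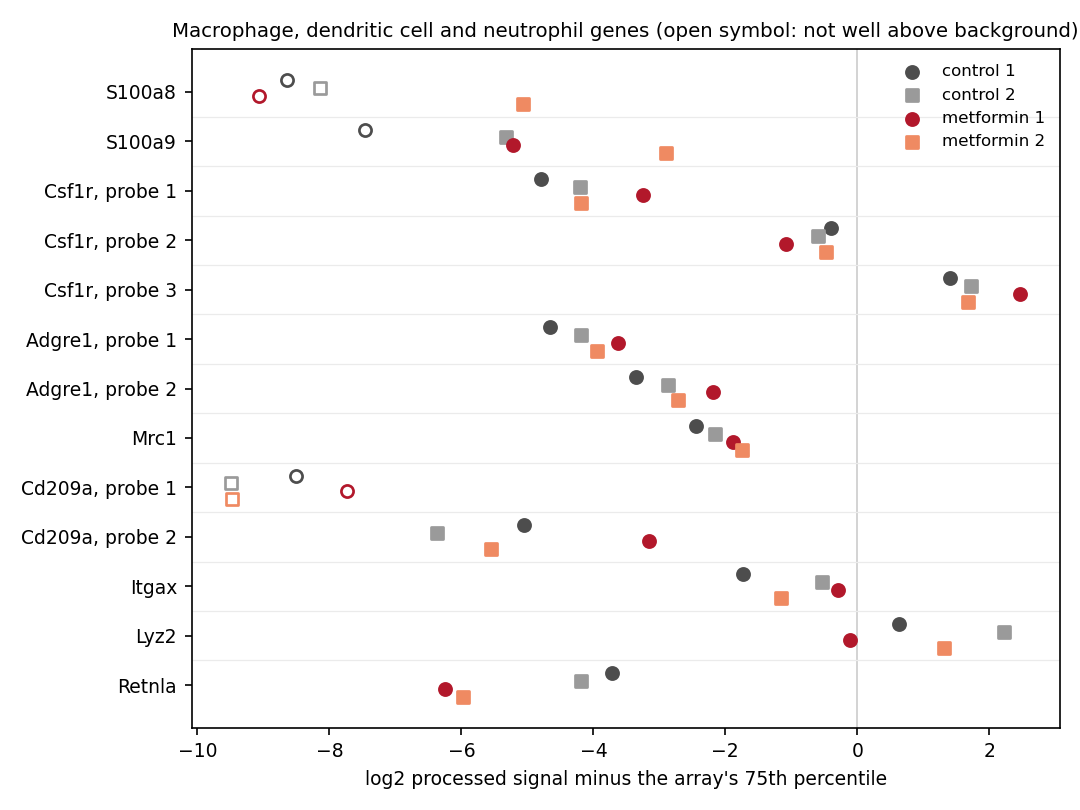
Log2 processed signal minus the array's 75th percentile (x axis) for each of 13 probes of 9 genes (y axis) in control 1, control 2, metformin 1 and metformin 2; open symbols are not well above background. S100a8 and S100a9 are highest in metformin 2 at -5.07 and -2.90, and Retnla reads -6.25 and -5.98 in the metformin samples, below -3.72 and -4.18 in the controls.

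S100a8 and S100a9 encode the calgranulins, calcium-binding proteins that pair as calprotectin and fill the neutrophil cytosol. The genes are neighbours on chromosome 3, S100a8 at chr3:90669071-90670034 and S100a9 at chr3:90692630-90695721 (RefSeq, GRCm38.p6). Their upstream bases are shown because the genes share a cell type and were both highest in the same sample. The 250 bases before each annotated start are chr3:90668821-90669070 on the plus strand and chr3:90695722-90695971 on the minus strand, printed 5′ to 3′ along the gene. Capitals mark matches on either strand to the letters of 4 motifs: C/EBP, PU.1, STAT6 and the TATA box.
S100a8: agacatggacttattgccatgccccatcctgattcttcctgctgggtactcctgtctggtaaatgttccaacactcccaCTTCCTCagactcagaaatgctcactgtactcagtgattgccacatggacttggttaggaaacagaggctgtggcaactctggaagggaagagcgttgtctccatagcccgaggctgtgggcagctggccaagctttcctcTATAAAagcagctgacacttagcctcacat
S100a9: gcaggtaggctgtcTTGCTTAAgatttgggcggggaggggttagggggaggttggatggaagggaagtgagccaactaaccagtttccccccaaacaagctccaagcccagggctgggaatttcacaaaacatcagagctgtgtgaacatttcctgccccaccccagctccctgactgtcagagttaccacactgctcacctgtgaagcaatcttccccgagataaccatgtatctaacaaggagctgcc
Among 32851 upstream windows of this length, 9.56% hold the C/EBP letters, TTGCNNAA. The PU.1 letters, GAGGAAG, are held by 10.6% of the windows. The STAT6 motif, TTC followed after any 4 bases by its reverse complement, is held by 5.85%, and the TATA letters, TATAAA, by 12.4%. S100a8 holds a PU.1 match beginning 171 bases before the start and a TATA match at 30 bases, and S100a9 a C/EBP match at 236 bases. No matches printed here overlap each other, and a match is a description of letters and not a bound site.

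S100a8 was well above background in metformin 2 alone. It read -5.07 there (processed signal 31.8), against -8.64, -8.14 and -9.07 in control 1, control 2 and metformin 1 (signals 2.29, 5.14 and 1.61), which are at the background and have no order. The metformin mean lies below the mean of the lowest detected signals of the 2 controls, which were -6.43 and -7.37, so no fold is given, and S100a8 did not enter the main test. Without a filter on dim probes its difference was 1.32 (SE 1.31, limma adjusted p = 0.9998).

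S100a9 read -7.46 in control 1, which was not well above background, and -5.33 in control 2; metformin 1 read -5.21 and metformin 2 read -2.90. Control 2 and metformin 1 were nearly level, while metformin 2 was highest and control 1 lowest. The groups did not overlap, but the samples within a group lay 2.13 (control) and 2.31 (metformin) apart. The difference was 2.33 (SE 1.09, 95% interval -0.58 to 5.25, limma adjusted p = 0.9996). It was 1.27 without control 1, 3.40 without control 2, 3.49 without metformin 1 and 1.18 without metformin 2, and 0.93 with normexp background correction.

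Other neutrophil genes followed this order only in part. Of 21 listed genes, 12 passed the background filter, 11 of them with a difference above 0 (57.9% of all features) and 4 higher without overlap (12.5% of all features). The list's median difference was 0.55, or 0.25 over the 11 well above background on all arrays. The latter leaves out Cxcl1, which passed the filter through the metformin samples alone. The list median stood 0.51 above the control mean in metformin 1 and 0.30 in metformin 2. Mmp9, the gelatinase of neutrophil granules, was the single member at least 2-fold different without overlap. Controls read -6.30 and -6.46, metformin 1 read -3.96 and metformin 2 read -5.58 (difference 1.61, SE 0.61), so its highest sample was metformin 1 and not metformin 2. The 3 brightest, Csf3r, the receptor for granulocyte colony stimulating factor, Trem1 and the elastase gene Elane, differed by 0.15 (SE 0.28), 0.16 (SE 0.28) and 0.06 (SE 0.28). Their mean levels were 5.78, 0.72 and -0.82 on 1 kept probe each, beside 5.28 for the epithelial marker Epcam. Whether these probes read neutrophil RNA was not tested.
Defining neutrophil genes were not well above background on both arrays of either group, namely Cxcr2, Ngp, Mmp8, Fpr1, Fpr2 and Stfa1, as were the chemokines Cxcl2 and Cxcl5, and Ly6g had no probe.

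The 5 profiles nearest to S100a9 over the 4 arrays, each centred on its own mean, were Plet1, Il1b, B3galt5, Ssh1 and Ccl3, at Euclidean distances of 1.07 to 1.38 log2 units among 13877 symbols. Il1b, a cytokine of activated myeloid cells, read -4.72, -2.80, -2.79 and -1.77, and the chemokine Ccl3 -5.26, -1.92, -3.73 and -0.51, in control 1, control 2, metformin 1 and metformin 2. In each of the 5, control 1 was lowest and metformin 2 highest, as in S100a9. They were picked for that likeness, so the shared order is not a separate result.

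Among the macrophage receptors, Adgre1 encodes F4/80, the adhesion receptor by which mouse macrophages are recognised. Its tested probe gave control values of -3.35 and -2.87 and metformin values of -2.18 and -2.71, in order of number, and a second probe -4.65, -4.19, -3.62 and -3.94. On both probes the metformin samples lay above the controls and metformin 1 was highest. The difference was 0.67 (SE 0.36, 95% interval -0.31 to 1.64, limma adjusted p = 0.9996) and 0.64 (SE 0.33) on the second probe. The controls differed from each other by 0.48 on the tested probe, and without metformin 1 the difference was 0.40.

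Mrc1, the mannose receptor of tissue macrophages, read -2.44 and -2.15 in controls against -1.89 and -1.74 with metformin. It had the least spread within the metformin group of the tested genes, 0.15, and no overlap. The difference of 0.48 (SE 0.30, 95% interval -0.31 to 1.27, limma adjusted p = 0.9996) did not pass, and ranged from 0.33 to 0.63 with each array left out.

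Csf1r had 3 probes, which did not give alike values. The brightest, the one tested, gave control values of 1.41 and 1.72 and metformin values of 2.47 and 1.68. They differed by 0.51 (SE 0.39, 95% interval -0.55 to 1.57, limma adjusted p = 0.9996), which was 0.12 without metformin 1. The dimmest read -4.80, -4.20, -3.24 and -4.19, a difference of 0.78 (SE 0.46). The probe between them read -0.40, -0.59, -1.08 and -0.48, lowest in metformin 1, a difference of -0.28 (SE 0.35). Metformin 1 was therefore the highest array on 2 probes and the lowest on the other, and no direction for Csf1r holds across its probes. Of its ligands, Csf1 read -3.04, -4.23, -3.88 and -5.67 on its brightest probe, with overlapping groups. Its other 2 probes read -5.36, -5.84, -6.28 and -9.02, and -5.61, -6.34, -6.68 and -8.23, without overlap; the metformin 2 values are below that array's lowest detected signal of -7.37. Il34 read -3.18, -1.78, -1.38 and -2.83, with overlapping groups.

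Itgax encodes CD11c, the integrin chain carried by dendritic cells and gut macrophages. Controls 1 and 2 read -1.73 and -0.54, and metformin 1 and 2 read -0.29 and -1.16, so the groups overlapped. The control gap of 1.19 exceeded the difference of 0.41 (SE 0.57, 95% interval -1.10 to 1.92, limma adjusted p = 0.9996), which was -0.19 without control 1 and -0.03 without metformin 1. Cd209a is a mouse relative of the lectin DC-SIGN of dendritic cells. Its tested probe read -5.05, -6.37, -3.15 and -5.55, with metformin 1 highest and control 1 above metformin 2. The difference was 1.36 (SE 0.96, 95% interval -1.21 to 3.92, limma adjusted p = 0.9996) and 0.16 without metformin 1. The second probe was not well above background on any array. Of its relatives, only Cd209d was detected on all 4 arrays, with a difference of 0.29; the probes of such a family can hybridise to other members.

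**Figure D2:**
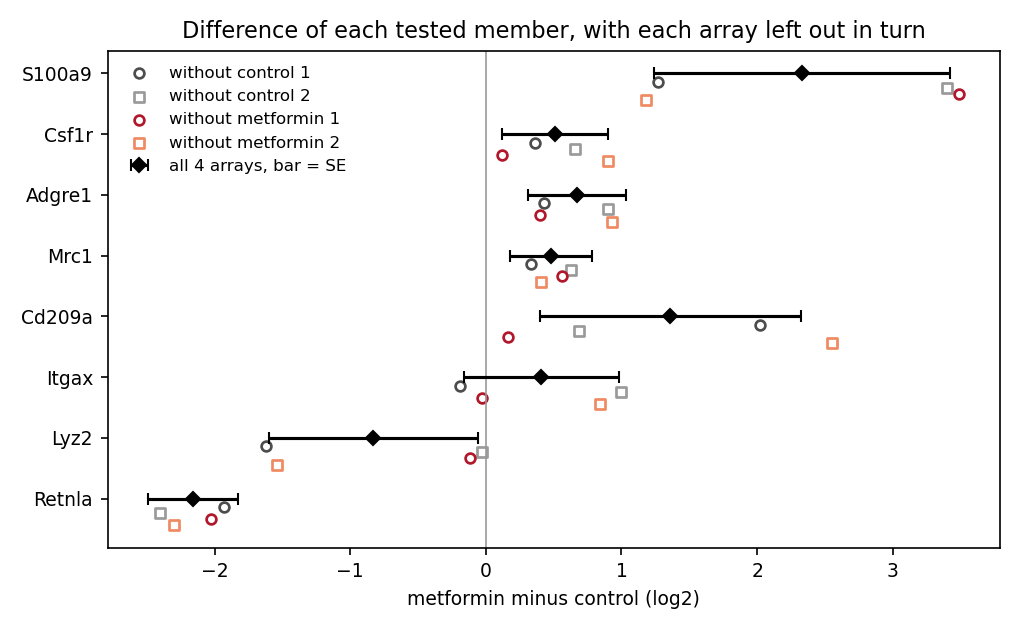
Metformin minus control on the log2 scale (x axis) for the 8 tested genes (y axis): diamonds with SE bars use all 4 arrays and open symbols leave out 1 array. Itgax crosses 0 without control 1 or metformin 1, Cd209a spans 0.16 to 2.55, and Retnla stays between -2.40 and -1.93.

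Lyz2 encodes lysozyme M of macrophages and neutrophils, and its neighbour Lyz1 the lysozyme of Paneth cells. The genes are close copies, so a probe for 1 can read the other. Their upstream bases, shown to display that likeness, are chr10:117282273-117282522 and chr10:117292869-117293118, both on the minus strand (RefSeq, GRCm38.p6), with capitals as above.
Lyz2: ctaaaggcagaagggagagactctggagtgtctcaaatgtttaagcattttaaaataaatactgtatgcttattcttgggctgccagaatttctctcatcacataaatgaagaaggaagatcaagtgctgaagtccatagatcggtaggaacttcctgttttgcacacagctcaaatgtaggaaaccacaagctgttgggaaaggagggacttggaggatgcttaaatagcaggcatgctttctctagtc
Lyz1: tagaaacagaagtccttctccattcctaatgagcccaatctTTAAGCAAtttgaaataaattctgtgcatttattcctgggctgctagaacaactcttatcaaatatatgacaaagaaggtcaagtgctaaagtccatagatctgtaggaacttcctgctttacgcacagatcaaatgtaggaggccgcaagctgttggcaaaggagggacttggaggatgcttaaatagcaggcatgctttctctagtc
The windows were identical at 200 of 251 aligned positions (79.7%), and the last 50 bases before the start were the same. Lyz1 holds a C/EBP match beginning 209 bases before its start; Lyz2 holds none of the 4 sets of letters in this window.

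Lyz2 read 0.63 and 2.22 in controls 1 and 2, against -0.11 and 1.31 in metformin 1 and 2. The samples numbered 2 were the higher in each group, and the control gap of 1.59 exceeded the difference of -0.83 (SE 0.77, 95% interval -2.87 to 1.22, limma adjusted p = 0.9996). Without control 2 the difference was -0.03 and without control 1 -1.62. Lyz1 read 7.83, 7.50, 7.54 and 7.79, a different order. Of 8 listed Paneth cell markers, Lyz1 among them, 5 were measured, with a median difference of -0.89. Of these, 0 had a difference above 0, beside 57.9% of all features. Mmp7 read 3.34, 4.60, 2.02 and 4.09 and Habp2 read 2.04, 2.87, 0.82 and 2.17, both in the order of Lyz2. Ang4 and Itln1 had other orders. How much of the Lyz2 signal came from Lyz1 or from Paneth cells was not tested.

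Retnla encodes the secreted resistin-like molecule alpha. Its upstream bases, chr16:48842359-48842608 on the plus strand (RefSeq, GRCm38.p6), are shown because interleukin-4 is known to act on this gene through STAT6 and C/EBP sites in its promoter.
Retnla: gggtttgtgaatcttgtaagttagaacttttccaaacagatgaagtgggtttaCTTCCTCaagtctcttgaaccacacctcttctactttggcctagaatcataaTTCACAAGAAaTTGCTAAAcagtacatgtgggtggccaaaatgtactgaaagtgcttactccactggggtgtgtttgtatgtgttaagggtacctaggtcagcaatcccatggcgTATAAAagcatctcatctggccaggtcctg
The window holds a STAT6 match beginning 145 bases before the start, a C/EBP match at 134, a PU.1 match at 197 and a TATA match at 30.

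Retnla read -3.72 and -4.18 in controls and -6.25 and -5.98 with metformin (processed signals 69.7, 80.0, 11.4 and 16.9), well above background on all 4 arrays. The groups did not overlap, and the gap between groups was wider than the spread within either. The means were -3.95 ± 0.33 and -6.11 ± 0.19 (SD, n = 2), a difference of -2.16 (SE 0.33, 95% interval -3.04 to -1.28). Its unadjusted p from limma's fit was 0.00191, at rank 7 of all features, and its adjusted p of 0.9996 did not pass. With each array left out the difference lay between -2.40 and -1.93. It was -0.63 with normexp background correction and -1.05 in the scaled deposited table, which holds raw signals; as deposited, with neither correction nor scaling, it was -1.31.

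The relatives of Retnla did not follow a common pattern. Retnlg, a gene of neutrophils beside it on the chromosome, read -5.61, -4.08, -3.54 and -4.47, and Retnlb, made by goblet cells, was well above background only in the samples numbered 2, at -6.15 and -5.37. Retn, the resistin of fat cells, read -2.25, -0.99, -3.90 and -5.26, and -2.10, -0.99, -4.10 and -6.74 on a second probe, so the metformin samples were below the controls on both.

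Genes of alternative activation were listed because Retnla is among the best known of them. Of 16, 12 passed the background filter, 10 with a difference above 0 and 2 higher without overlap, beside 57.9% and 12.5% of all features, with a median of 0.43. Il4 itself was at least 2-fold different without overlap, reading -7.47 and -6.63 in controls, 1 of them well above background, and -5.59 and -6.37 with metformin (difference 1.07, SE 0.47). It passed the filter through the metformin samples alone, and control 1 lies below that array's lowest detected signal of -6.43, so the size of its difference is not a measured fold. The brightest, Mgl2, Klf4 and Stat6, differed by -0.30 (SE 0.40), 0.40 (SE 0.53) and 0.26 (SE 0.35). Arg1 and Chil3, the usual companions of Retnla in such macrophages and chosen here after their values were seen, differed by -0.53 (SE 0.47) and 0.56 (SE 0.52). Neither showed a separation of the groups like that of Retnla.

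The 5 profiles nearest to Retnla were Col4a2, Col4a1, Ptgir, Serpinf1 and Ackr3, at distances of 0.298 to 0.558 log2 units. Col4a2, a basement membrane collagen, read -0.91, -1.62, -3.55 and -3.57. Marker lists of the wall and of fat also lay lower in the metformin samples. Of 10 fibroblast markers 9 were at least 2-fold lower without overlap (list median -1.60 and -2.54 from the control mean in metformin 1 and 2), and 7 of 9 measured adipocyte markers (-2.06 and -3.49). Of 7 measured smooth muscle markers 6 were, with medians of 2.34 and -2.34 in the controls and -3.73 and -2.55 with metformin. Endothelial markers were mixed: 4 of 8 were in that class (-1.01 and -0.69), while 3 had a difference above 0. Of those 3, Prox1 passed the filter through the metformin samples alone, and Kdr differed by 0.15 on its tested probe and -1.59 on another. The share of all features at least 2-fold lower without overlap was 2.3%. Dpt of the fibroblast list and Plin1 of the adipocyte list, both in these counts, passed the filter through the control samples alone. The part of these cells in the Retnla signal was not tested.

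**Figure D3:**
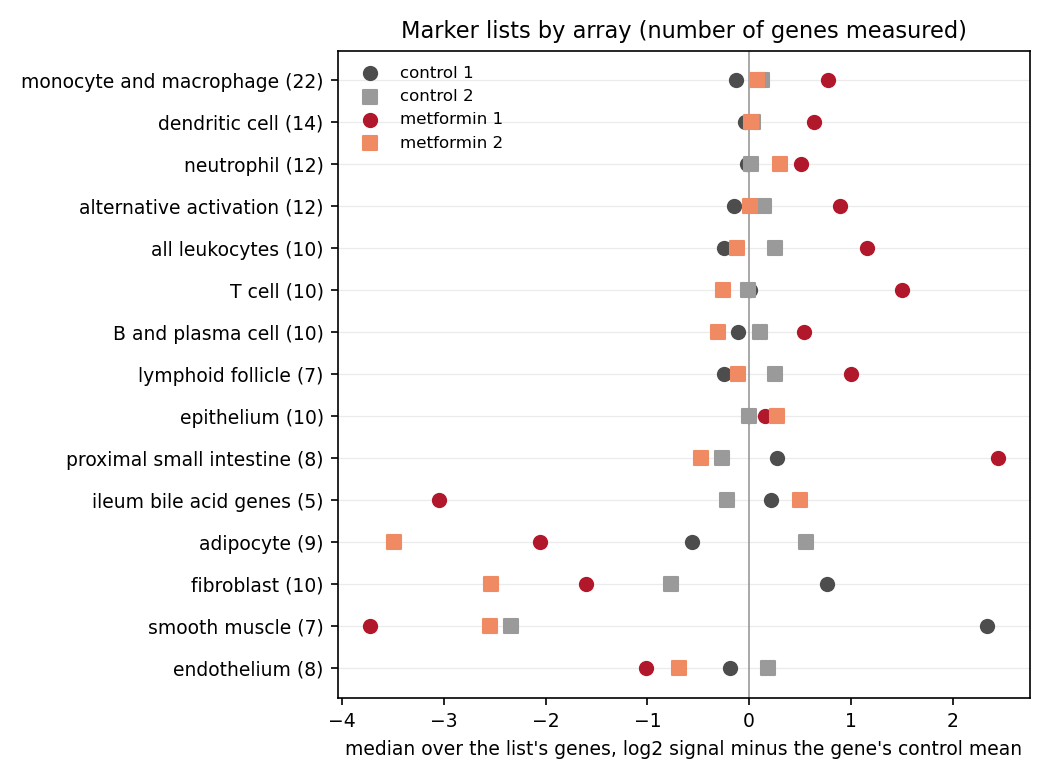
Median of each list's genes (x axis), each gene taken on the log2 scale relative to its own mean in controls, by list with the number of genes measured (y axis) and array. Metformin 1 is highest for the myeloid, all-leukocyte (1.16) and T cell (1.5) lists, while both metformin samples are lowest for the fibroblast and adipocyte lists.

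The wider macrophage and dendritic lists lay higher in metformin 1. Of 29 monocyte and macrophage genes, 22 passed the filter, 19 with a difference above 0 (86.4%, against 57.9% of all features) and 6 higher without overlap (12.5% of all features), none of them 2-fold. Msr1, among the 19, and Siglec1 passed the filter through the metformin samples alone. The list's median difference was 0.48, and also 0.48 over the 20 genes well above background on all arrays. From the control mean the list median was 0.78 in metformin 1 and 0.08 in metformin 2, and metformin 1 was the highest array for 17 of 22. The complement gene C1qb, made by tissue macrophages, read -1.34, -1.32, -0.61 and -1.19, and the adaptor Tyrobp -0.80, -0.49, 0.78 and -0.34. The brightest, Plac8, Ctss and Maf, differed by 0.66 (SE 0.30), 0.37 (SE 0.49) and 0.29 (SE 0.67). Spi1, Cd163, Trem2, Folr2 and Ccr2 were not well above background on both arrays of either group.

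Of 18 dendritic cell genes, 14 passed the filter, 13 with a difference above 0 and 2 higher without overlap, the latter a share near the 12.5% of all features, beside 57.9% for the former, with a median of 0.32. Clec9a, among the 13, passed the filter through the metformin samples alone, and the median was 0.29 without it. The list stood 0.64 above the control mean in metformin 1 and 0.02 in metformin 2, and metformin 1 was highest for 12 of 14. The brightest, Siglech, Irf8 and Cd83, differed by 0.19 (SE 0.33), 0.26 (SE 0.30) and 0.43 (SE 0.42). Probes of a gene could disagree in signal: the Siglech probe tested read 6.87, 6.45, 7.03 and 6.67, and its other probe -5.25, -5.10, -3.83 and -4.57. Of 31 listed genes with several kept probes, 10 had probe means over 4 log2 units apart and 3 had probes of opposite sign. Values of such genes belong to the probe.

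**Figure D4:**
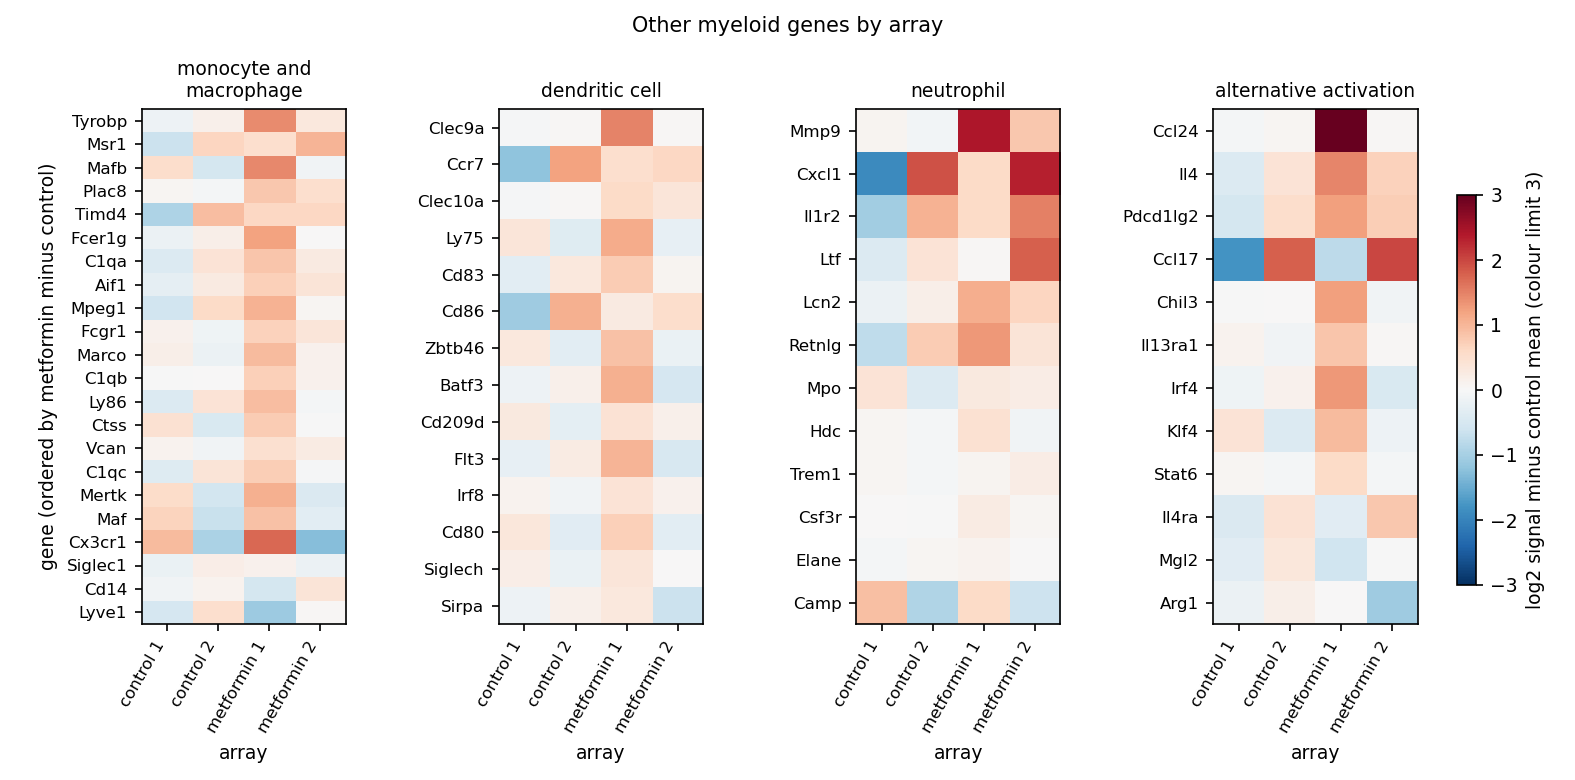
Log2 signal relative to each gene's own mean in controls (colour, limited at 3 units, which Ccl24 passes in metformin 1) for genes of 4 lists (rows, ordered by difference) in the 4 arrays (columns). The column of metformin 1 is the reddest in the macrophage, dendritic and alternative activation panels, whereas Cxcl1, Il1r2 and Ltf are highest in metformin 2.

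Leukocytes at large, T cells and B cells showed the same array as highest, while the mast cell and eosinophil list had its highest median in control 2. All 10 genes common to leukocytes had a difference above 0, none without overlap, beside 57.9% and 12.5% of all features. Lcp2 among them passed the filter through the metformin samples alone. The list median from the control mean was 1.16 in metformin 1 and -0.12 in metformin 2. The T cell list of 10 stood at 1.5 and -0.26, and the B and plasma cell list of 10 at 0.54 and -0.31. All 10 T cell markers, 9 of 10 leukocyte genes and 7 of 10 B and plasma cell markers were highest in metformin 1. The share of all features highest in metformin 1 was not computed, for these counts or for those given above. Once the leukocyte list's median was subtracted in each array, the differences were -0.01 for Csf1r, 0.15 for Adgre1, -0.04 for Mrc1 and -0.11 for Itgax. For Csf1r, Adgre1 and Mrc1 these are means of metformin arrays that lay on either side of the controls. Mrc1 stood at -0.75 in metformin 1 and 0.68 in metformin 2, and Adgre1 at -0.23 and 0.53. Both Itgax metformin values, -0.32 and 0.10, lay between those of the controls. S100a9 differed by 1.82 in the same measure, from 0.02 in metformin 1 and 3.61 in metformin 2. Its controls stood at -0.81 and 0.81, so its groups then overlapped. Cd209a differed by 0.84 and Lyz2 by -1.34, also with overlapping groups. Retnla differed by -2.68, with both metformin arrays below the controls at -3.46 and -1.90. The part of leukocyte content or gut region in these values was not tested.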

How the data were processed

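The scanner files hold linear spot intensity values from Agilent Feature Extraction 10.7.3.1, per the file headers, corrected for background within each array and not scaled between arrays. The authors also deposited a table of intensity values that equalled the raw median spot signal for all 39030 single-spot probes (within 1e-06); it served as an alternative.

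Processed signals were averaged per probe without outlier spots, converted to log2 and centred on each array's 75th percentile. Accessions were matched to the RefSeq table of GRCm38.p6, naming 27508 of 39429 probes. Probes well above background on both arrays of a group were kept (26441), the brightest of each gene was tested, and no spot was saturated. The test was limma's moderated linear model (version 3.58.1), two-sided, with Benjamini-Hochberg adjustment over 21649 features. The script was run on simulated data whose spread within groups was capped below that of S100a9, Cd209a and Lyz2. That run checks the code and not the power of the test on these arrays. Alternatives covered background, scaling, filter, probe rule, eBayes options, the deposited table, the replicate block and leaving out each array. Normexp used the median spot signal, since the files hold no mean. Probe sequences were not used here, so cross-hybridisation was not examined.

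Genes and lists were chosen with earlier results of these data known. In the neutrophil, alternative activation, macrophage and dendritic lists, genes at least 2-fold different without overlap and the 3 brightest are named. The 5 profiles nearest to S100a9, Adgre1 and Retnla are named as well. Lists of colony stimulating factor genes and of beta2 integrins were also made and, apart from Csf1 and Il34, are not given here. Other listed genes were named after their values were seen.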

Additional observations from a re-analysis of the deposited data

How the results depend on the processing

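No gene passed the adjusted threshold in limma's fit under any of the 16 alternatives, 1 of which, every probe as a feature, was chosen after seeing the data. On the brightest probe, differences of S100a9, Csf1r, Adgre1, Mrc1, Cd209a, Lyz2 and Retnla kept their sign under all alternatives in which they were measured, while another Csf1r probe read -0.28; S100a9 was not measured when all 4 arrays had to be above background. Itgax turned to -0.19 without control 1 and -0.03 without metformin 1. The 2-fold count of 636 became 129 with normexp correction (13 higher and 116 lower), 220 in the scaled deposited table (22 and 198) and 1130 without a filter; it ranged from 1204 to 3316 with 1 array left out, where fewer values must not overlap. The median of the tested genes was 0.22 in the deposited table as it stands, where no scaling was applied, and 0.14 to 0.87 with 1 array left out. For the other changes the cause was not tested. The replicate numbers do not pair the samples by any label. Deviations of samples with the same number correlated at 0.56 across features. With the replicate block 0 genes passed and 509 higher and 1030 lower had an unadjusted p under 0.05, in place of 76 and 271; adjusted p was 0.631 for S100a9 and Retnla. Signals near background limit S100a8, S100a9, Cd209a and Retnla.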

Other observations

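Among the measured mast cell and eosinophil markers, Kit alone was lower without overlap, beside 8.46% of all features. Of 11 mast cell and eosinophil markers 7 were measured, 5 with a difference above 0, beside 57.9% of all features. Ccr3 and Il5ra, 2 of the 7, were higher without overlap, beside 12.5% of all features. The median of the 7 was 0.17. The mast cell protease genes Mcpt1, Mcpt2 and Mcpt4 differed by 0.07 (SE 0.41), -0.01 (SE 0.37) and 0.17 (SE 0.37). Kit, the stem cell factor receptor, differed by -0.78 (SE 0.29) without overlap, and the cell source of its signal was not tested. Ccr3, the eotaxin receptor of eosinophils, chosen after its values were seen, read -7.90 and -6.11 in controls, 1 of them well above background, and -4.59 and -5.20 with metformin. The other measured eosinophil genes, Il5ra and Prg2, differed by 0.94 (SE 0.45, without overlap) and 0.39 (SE 0.54, overlapping, with 1 control well above background). Ccr3 and Prg2 passed the filter through the metformin samples alone. The Ccr3 ligand gene Ccl24, chosen in the same way, read -4.59, -4.49 and -4.50 in control 1, control 2 and metformin 2, and -0.55 in metformin 1. Gp2, a receptor on the M cells that overlie lymphoid follicles, was highest in metformin 2, at -1.57 against -3.38, -3.99 and -3.70, while Fcer2a and Cr2 of follicle cells were highest in metformin 1.

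The 5 profiles nearest to Adgre1 were Ms4a7, Tbxas1, H2-DMa, Tubb2a and Ghrl, at distances of 0.0769 to 0.106 log2 units. Ms4a7, a membrane protein gene of macrophages, read -0.98, -0.44, 0.30 and -0.31, and the gut hormone gene Ghrl 0.65, 1.02, 1.72 and 1.3 in control 1, control 2, metformin 1 and metformin 2.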
